A study of Canis lupus familiaris with 6 samples.

Results

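Autophagy, the delivery of cytoplasm to lysosomes in double-membrane vesicles, and mTORC1, the nutrient-sensing kinase complex that restrains it, are represented here by 40 genes out of 41401 gene symbols. The genes were chosen by name, with earlier results of these data known, 26 for the autophagy machinery and 14 for mTORC1, its regulators and AMPK. All 40 passed the filter of a mean of at least 1 FPKM (a fragment count divided by transcript length and library size) that 12125 genes passed. The 6 RNA-seq libraries were made from MDCK, a line of dog kidney epithelial cells. Wild-type cells, clone 1 and clone 2 were each transfected with control siRNA or with PRL1 siRNA, and RNA extraction followed the second transfection by 18 h. Both clones are labelled PRL2-/-; PRL1+/-, that is, without PRL2 and heterozygous for PRL1, and they carry this genotype under either siRNA. Each line is represented by 1 library per siRNA, each mutant line is a single clone, and how the alleles were disrupted is not given in the sources used here. Nothing in the labels says that libraries were separate cultures, and p-values therefore cover only the differences seen among these libraries, which may be technical.

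In a cell with ample nutrients, mTORC1 on the lysosome surface phosphorylates the ULK1 complex and keeps autophagy low, while AMPK, activated when energy falls, opposes mTORC1 and activates ULK1. Autophagosome formation then runs through the ULK1 kinase complex, a lipid kinase complex around VPS34 and Beclin 1, the lipid scramblase ATG9A, and a pair of ubiquitin-like conjugation systems that attach the ATG8 proteins (LC3 and GABARAP) to the growing membrane. Cargo receptors such as p62 carry an LC3-binding motif and bring selected material into the vesicle. Kidney tubule cells use this pathway to clear damaged mitochondria and protein aggregates. Much of its control is exerted on proteins by phosphorylation and lipidation, which transcript levels do not report.

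The target of the siRNA was lower in all 3 knockdown libraries. PTP4A1, which encodes the PRL1 phosphatase, was at 63.5 FPKM in the wild-type control and 33.1 in its knockdown, at 61.7 and 37.8 in clone 1, and at 69.9 and 37.8 in clone 2. It fell by 0.83 ± 0.05 on the log2(FPKM + 1) scale (limma's SE, n = 3 lines, adjusted p = 0.00127). Here and below ± is limma's SE, whose variance is pooled over genes, so it is not the spread of the lines alone. Throughout, paired values give the control library first and the knockdown library of the same line after it. Under control siRNA the clones lay on either side of wild type in PTP4A1. PTP4A2, which encodes PRL2, was at 72.7 and 59.0 FPKM in wild type, 80.4 and 69.1 for clone 1, and 56.7 and 48.3 for clone 2, so its transcript was present in the libraries labelled PRL2-/-, and a level per gene does not show whether an allele is disrupted. PTP4A2 also fell after PRL1 siRNA (-0.25 ± 0.04, adjusted p = 0.00572).

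All 8 markers of kidney epithelium were above 1 FPKM on average, with EPCAM between 272 and 358 FPKM and CDH16, the kidney cadherin, between 3.08 and 7.82. Of these 8 genes 3 rose and 4 fell after knockdown (37.5% and 50%, against 17.6% and 21.7% of all genes tested). The part of these markers in the members' differences was not tested. The marker lists of leukocytes, fibroblasts and endothelium, 4 genes each, summed to at most 2.55, 0.473 and 1.25 FPKM in any library, and PTPRC and CD3E were listed at 0 in every library. The absolute depth is unknown, and relative to the wild-type control library the other libraries had between 0.766 and 0.915 of its depth.

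FPKM is scaled by length, so levels can be compared between genes. Member levels spanned 2 orders of magnitude, from ATG14 at a mean of 2.76 FPKM over the 6 libraries to SQSTM1 at 323 FPKM, with a median of 18.4 against 12.3 for all genes tested. SQSTM1, which encodes the cargo receptor p62, and GABARAP were far above the rest. Next came ATG3, BECN1, RHEB and OPTN, at means between 52.2 and 68.6 FPKM, with ATG3, BECN1 and RHEB overlapping in their library values. At the low end, above ATG14, were PRKAA2, MLST8, WIPI1, ATG10, ATG7 and RPTOR, each under 7 FPKM on average. Most members lay within a narrow band across the 6 libraries, WIPI1 and UVRAG being the ones with a wide spread between lines.

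**Figure D1:**
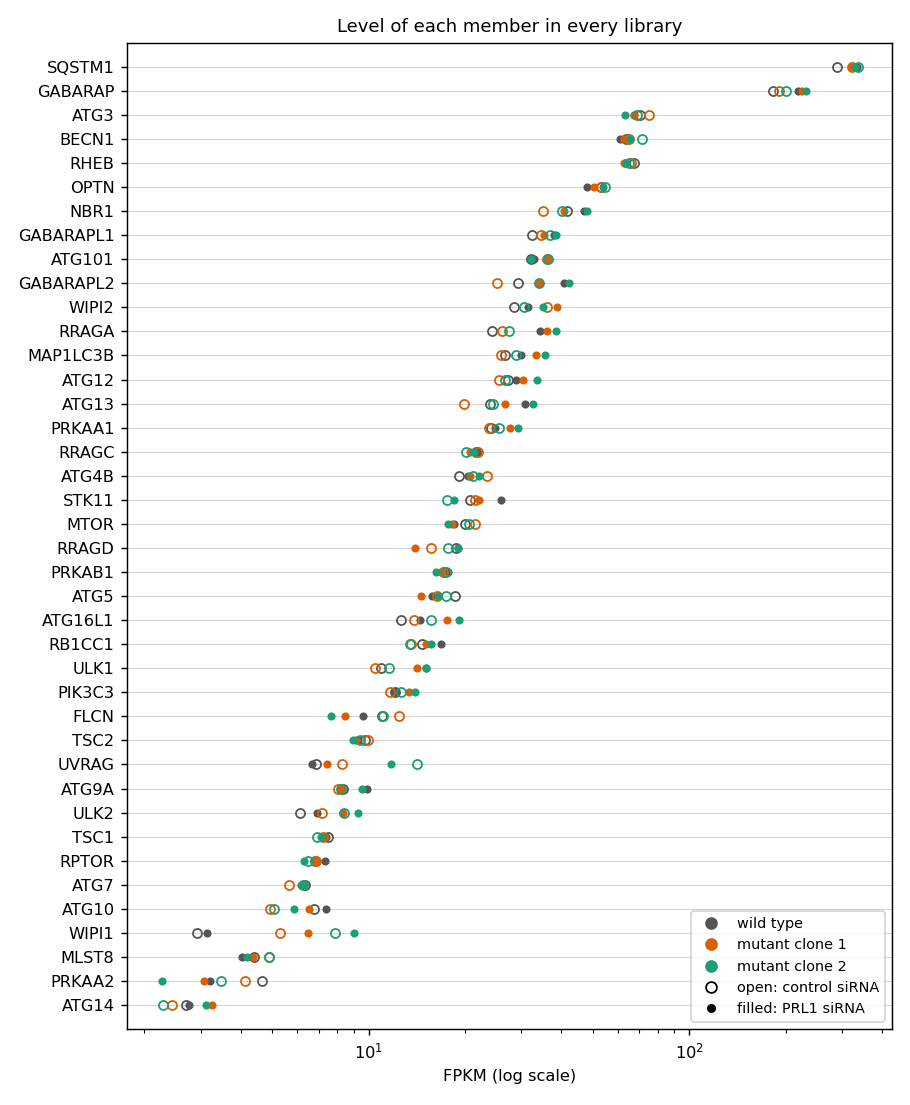
Level of each of the 40 members in FPKM (horizontal log axis) in the 6 libraries, ordered by mean, with open circles for control siRNA, filled circles for PRL1 siRNA, and colour for the line. SQSTM1 and GABARAP stand above all other members, and the points of WIPI1 and UVRAG are spread by line.

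After PRL1 knockdown, autophagy genes moved upward more often than downward, by small amounts. In the fit over the 3 lines, in which each knockdown library is set against the control of its own line, 13 members rose, 4 fell and 23 did not pass at an adjusted p of 0.05. Of the 26 autophagy genes 12 rose (ULK1, ULK2, ATG13, RB1CC1, ATG10, ATG12, ATG16L1, WIPI2, MAP1LC3B, GABARAP, GABARAPL2 and NBR1) and 1 fell (ATG5), and of the 14 mTORC1 and AMPK genes 1 rose (RRAGA) and 3 fell (MTOR, FLCN and PRKAA2). Over all genes tested, 39.3% were called, 17.6% rising and 21.7% falling. That balance turned with the scaling: 2130 genes rose and 2632 fell as deposited (44.7% of calls rising), and 2545 rose and 2197 fell with the libraries set to a common median (53.7% rising), where 15 members rose and 3 fell. The members' total of 42.5% called is near that background, with 32.5% rising and 10% falling. Because the members were chosen with earlier results of these data known, setting their shares beside those of all genes is not a test. Estimates ranged from 0.14 to 0.47 log2 units for those that rose and from -0.15 to -0.40 for those that fell. No member reached 0.5 log2 units either way in this fit, a size that 5.37% of all genes reached. The log2(FPKM + 1) scale understates the change of low genes such as PRKAA2. Among the alternatives that kept the line term, the lowest estimates were -0.51 for PRKAA2 and -0.503 for FLCN. The median estimate was 0.15 in the autophagy genes, -0.02 in the mTORC1 and AMPK genes and -0.01 over all genes. In bulk RNA, fewer cells with a transcript and less transcript per cell cannot be told apart.

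The calls rest on pairing each knockdown library with the control of its line. The fit without the line term pooled the clones, in 4 groups of genotype by siRNA. It weighted the wild-type pair as much as both clones together, so its estimates also differ somewhat. In that fit 0 of 12125 genes and 0 members passed, although 3166 genes and 10 members had an unadjusted p under 0.05. The 17 called members then had adjusted p-values of 0.0687 to 0.399. Leaving out a line leaves 1 residual degree of freedom. Without clone 1, ULK1, ATG13, GABARAPL2, RRAGA and PRKAA2 kept their calls and the other 12 had adjusted p-values of 0.0532 to 0.228, and without clone 2 the same 5 and GABARAP kept theirs and 11 had 0.0584 to 0.16. Without wild type, 18 members passed: ULK2, ATG5 and WIPI2 were lost (adjusted p = 0.0714, 0.107 and 0.0627), while ATG14, WIPI1 and PRKAA1 were gained among those that rose and ATG3 among those that fell. With no filter on low values (27931 genes) only ULK1, ATG13, GABARAP and RRAGA kept their calls, and the other 13 had adjusted p-values of 0.053 to 0.195. In each of the 17 called members all 3 lines had the same sign. Counted without a test, 19 members were higher in all 3 lines and 11 were lower (47.5% and 27.5%), against 31.6% and 35.8% of all genes tested.

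**Figure D2:**
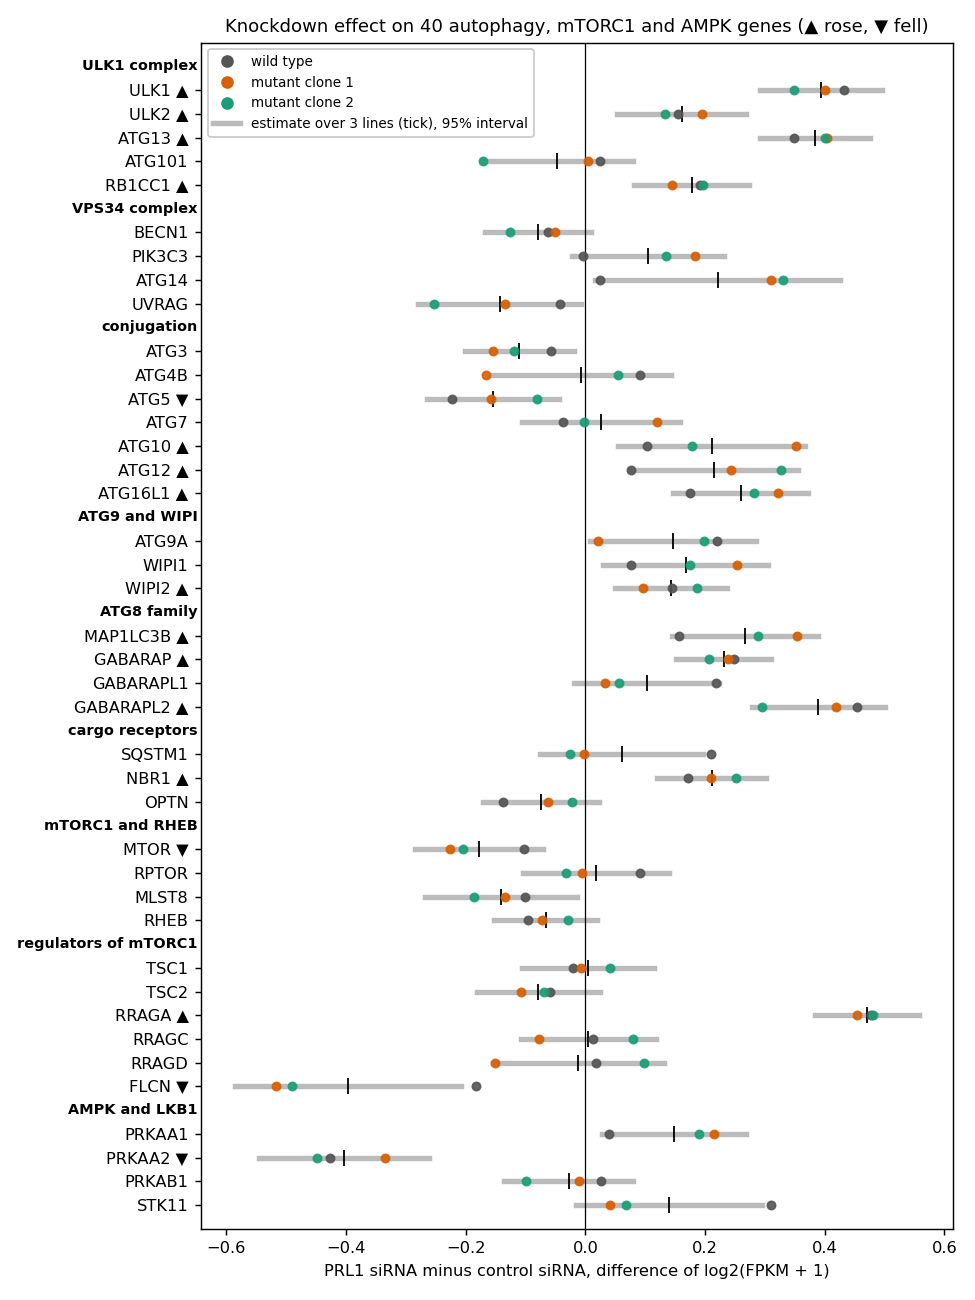
Difference of log2(FPKM + 1) between PRL1 and control siRNA (horizontal axis) for each member, grouped by role, with 1 point per line, the estimate over the 3 lines as a tick and its 95% interval as a grey bar. RRAGA lies farthest to the right and PRKAA2 and FLCN farthest to the left, and triangles mark the 13 members that rose and the 4 that fell.

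The ULK1 complex, which starts autophagosome formation, had 4 of 5 genes rising (80%, against 17.6% of all genes tested). ULK1, the kinase of the complex, was at 11 FPKM in the wild-type control and 15.2 in its knockdown, at 10.5 and 14.2 in clone 1, and at 11.6 and 15.1 in clone 2. Every knockdown library was above every control library, as for 12.6% of all genes tested. ULK1 rose by 0.39 ± 0.04 log2 units (limma's SE, n = 3 lines, adjusted p = 0.00235). ATG13, the regulatory subunit that mTORC1 and ULK1 both phosphorylate, went from 23.9 to 30.8 FPKM in wild type, 19.9 to 26.6 for clone 1 and 24.5 to 32.6 for clone 2. The lowest knockdown value of ATG13, in clone 1, was still above the highest control value, and the rise was 0.38 ± 0.04 (adjusted p = 0.00199). RB1CC1, which encodes the scaffold FIP200, was at 14.7 and 16.9, 13.6 and 15.1, and 13.5 and 15.6 FPKM in wild type, clone 1 and clone 2, again without overlap, and rose by 0.18 ± 0.04 (adjusted p = 0.018). ULK2, a close relative of ULK1, was at 6.10 and 6.90, 7.14 and 8.32, and 8.37 and 9.27 FPKM. Its lines stood further apart than the siRNAs, and within lines it rose by 0.16 ± 0.04 (adjusted p = 0.034). ATG101, the subunit that stabilises ATG13, did not pass: it was at 32.2 and 32.8 FPKM in wild type, nearly level in clone 1 at 35.9 and 36.1, and at 36.4 and 32.2 in clone 2. Its estimate was -0.05, with a 95% interval of -0.17 to 0.08.

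The lipid kinase complex had 0 of 4 genes passing, against 39.3% of all genes tested. BECN1, which encodes the scaffold Beclin 1, was at 63.5 and 60.8 FPKM in wild type, 64.8 and 62.5 for clone 1, and 71.5 and 65.4 for clone 2. It was slightly lower after knockdown in each line, the groups overlapped, and the estimate was -0.08 (95% interval -0.17 to 0.01, adjusted p = 0.128). PIK3C3, the catalytic subunit VPS34, had an estimate of 0.10 (95% interval -0.02 to 0.23, adjusted p = 0.155). ATG14, which directs the complex to sites of autophagosome formation, and UVRAG, which takes its place in the endosomal form of the complex, had estimates of opposite sign. ATG14 was at 2.69 and 2.76 FPKM in wild type, 2.44 and 3.26 for clone 1, and 2.28 and 3.12 for clone 2 (estimate 0.22 ± 0.08, adjusted p = 0.0816 over 3 lines, 0.0333 in the clones alone). The test of clones minus wild type did not pass for ATG14 (0.30 ± 0.12, adjusted p = 0.5). UVRAG was at 6.88 and 6.65, 8.25 and 7.43, and 14.2 and 11.7 FPKM in the same order, with an estimate of -0.14 ± 0.05 (adjusted p = 0.0876).

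Of the genes that supply and mark the membrane, WIPI2 rose and ATG9A and WIPI1 did not pass (33.3% rising, against 17.6% of all genes tested). WIPI2, the effector that reads the lipid made by VPS34 and recruits ATG16L1, was at 28.4 and 31.5 FPKM in wild type, 36.1 and 38.7 for clone 1, and 30.7 and 35.0 for clone 2. It was higher in each line by less than the distance between lines (0.14 ± 0.04, adjusted p = 0.0319). WIPI2 lost its call with no variance trend (adjusted p = 0.0523), with no filter, on leaving out any line and without the line term. ATG9A, the scramblase, was at 8.32 and 9.86 FPKM in wild type and 8.19 and 9.54 in clone 2, but at 8.05 and 8.19 in clone 1 (0.15 ± 0.06, adjusted p = 0.0857). WIPI1, a relative of WIPI2, had an estimate of 0.17 ± 0.06 (adjusted p = 0.0595, and 0.0393 with the libraries set to a common median).

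The conjugation machinery moved in both directions, 3 genes rising, 1 falling and 3 not passing. The rising and falling shares were 42.9% and 14.3%, against 17.6% and 21.7% of all genes tested. ATG16L1, which with ATG12 and ATG5 forms the complex that places ATG8 proteins on the membrane, was at 12.7 and 14.4 FPKM in wild type, 13.9 and 17.6 for clone 1, and 15.6 and 19.2 for clone 2, and rose by 0.26 ± 0.05 (adjusted p = 0.00964). ATG12, the ubiquitin-like partner of ATG5, went from 27.3 to 28.8, from 25.5 to 30.4 and from 26.6 to 33.6 FPKM in the same order, and rose by 0.22 ± 0.06 (adjusted p = 0.0309). ATG10, the enzyme that transfers ATG12, went from 6.77 to 7.34, from 4.91 to 6.54 and from 5.07 to 5.87 FPKM (0.21 ± 0.06, adjusted p = 0.0447). For ATG16L1, ATG12 and ATG10 the difference in wild type was below that in both clones, and the test of clones minus wild type did not pass for any of them. ATG5, the acceptor of ATG12, went the other way, from 18.6 to 15.8 FPKM in wild type, 16.4 to 14.6 for clone 1 and 17.5 to 16.5 for clone 2, and fell by 0.15 ± 0.04 (adjusted p = 0.0413). This single fall among the autophagy members was lost with a common median (adjusted p = 0.0826), quantile normalization (0.0997) and no variance trend (0.0566). ATG5 also lost its call with no filter, on leaving out any line and without the line term. Its smallest difference was in clone 2, where 16.5 FPKM after knockdown was above the control value of clone 1. ATG3, which transfers ATG8 proteins to lipid, was at 70.1 and 67.3, 74.9 and 67.2, and 68.7 and 63.2 FPKM, lower without overlap but not passing (-0.11 ± 0.04, adjusted p = 0.0607). The activating enzyme ATG7 (0.03, 95% interval -0.11 to 0.16) and the protease ATG4B (-0.01, 95% interval -0.16 to 0.14) had differences of either sign among the lines. In RefSeq, ATG4B overlaps THAP4, which was at 13.7 to 17.0 FPKM.

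The ATG8 family, the ubiquitin-like proteins that coat the autophagosome, had 3 of 4 genes rising (75%, against 17.6% of all genes tested). GABARAPL2 was at 29.4 and 40.6 FPKM in wild type, 25.2 and 34.1 for clone 1, and 34.1 and 42.1 for clone 2. Within each line the knockdown value was higher, while the control of clone 2 and the knockdown of clone 1 met at 34.1, and GABARAPL2 rose by 0.39 ± 0.04 (adjusted p = 0.00302). In RefSeq it overlaps ADAT1, a tRNA deaminase gene at 6.77 to 8.64 FPKM, and whether strand was used in quantification is not given in the sources used here. MAP1LC3B, which encodes LC3B, the protein most used as an autophagosome marker, went from 26.7 to 29.9 FPKM in wild type, 25.8 to 33.2 for clone 1 and 28.9 to 35.5 for clone 2 (0.27 ± 0.05, adjusted p = 0.0109). All 3 knockdown values of MAP1LC3B were above all 3 control values. GABARAP, the most abundant of the family, went from 183 to 218, from 190.2 to 224 and from 201 to 232 FPKM (0.23 ± 0.03, adjusted p = 0.00486), also without overlap. GABARAPL1 was at 32.4 and 37.9 FPKM in wild type, but at 34.5 and 35.3 in clone 1 and 36.9 and 38.4 in clone 2. Its estimate of 0.10 did not pass (95% interval -0.02 to 0.22, adjusted p = 0.147). Summed over the family, the level went from 272 to 326 FPKM in wild type, 276 to 327 for clone 1 and 301 to 348 for clone 2, with GABARAP making up between 66.7% and 69.0% of each sum. ATG8 genes are close relatives, and fragments shared with a relative or a processed copy could move between them.

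Of the cargo receptors, NBR1 rose and SQSTM1 and OPTN did not pass (33.3% rising, against 17.6% of all genes tested). NBR1, a receptor for ubiquitinated cargo, was at 41.7 and 47.0 FPKM in wild type, 35.1 and 40.7 for clone 1, and 40.3 and 48.2 for clone 2 (0.21 ± 0.04, adjusted p = 0.00932). SQSTM1 was at 289 and 335 FPKM in wild type, 323 and 322 for clone 1, and 336 and 329.8 for clone 2. Its estimate was 0.06 over the 3 lines (95% interval -0.08 to 0.20, adjusted p = 0.411) and -0.01 in the clones alone, and the test of clones minus wild type did not pass (-0.22 ± 0.06, adjusted p = 0.471). OPTN, which encodes optineurin, was lower by 0.14, 0.06 and 0.02 log2 units in wild type, clone 1 and clone 2 (adjusted p = 0.182).

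**Figure D3:**
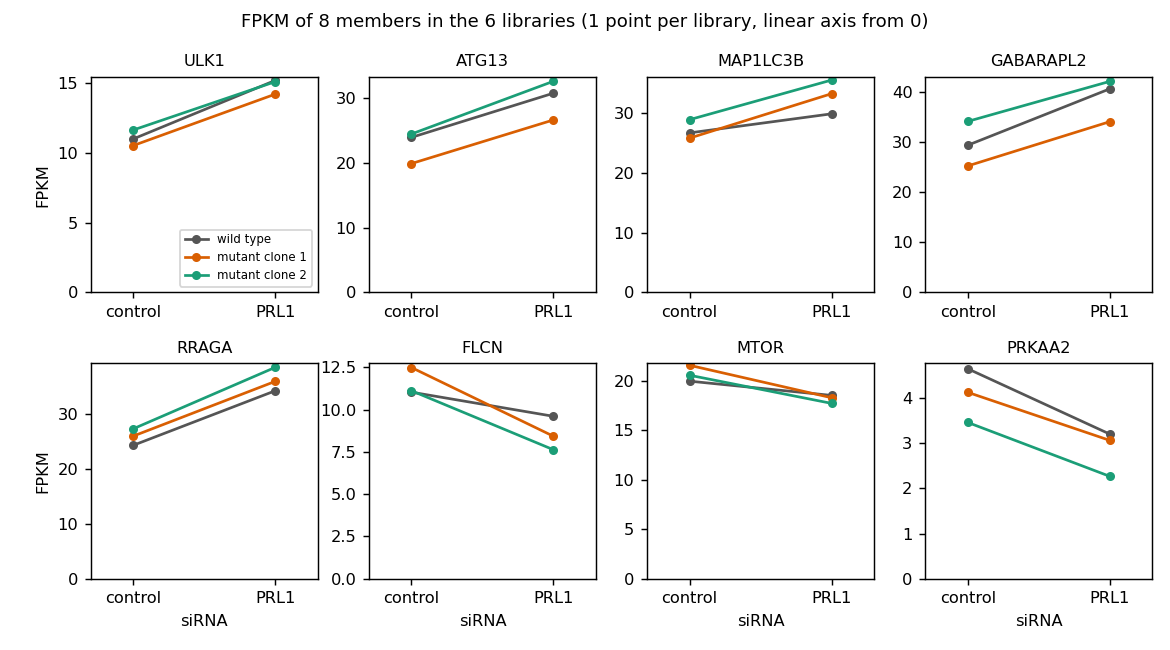
FPKM of 8 members (vertical axis, linear, from 0) under control and PRL1 siRNA, with 1 point per library and a line joining the 2 libraries of a cell line. ULK1, ATG13, MAP1LC3B, GABARAPL2 and RRAGA slope up in all 3 lines, and FLCN, MTOR and PRKAA2 slope down.

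Within mTORC1 and its activator, MTOR fell and the other 3 genes did not pass (25% falling, near the 21.7% of all genes tested). MTOR, the kinase, was at 19.9 and 18.5 FPKM in wild type, 21.5 and 18.3 for clone 1, and 20.5 and 17.7 for clone 2. All control values were above all knockdown values, and MTOR fell by 0.18 ± 0.04 log2 units (adjusted p = 0.0243, and 0.0514 after quantile normalization). MLST8, the small subunit bound to the kinase domain, was at 4.38 and 4.02, 4.88 and 4.36, and 4.89 and 4.18 FPKM in the same order, lower without overlap but not passing (-0.14 ± 0.05, adjusted p = 0.0771). RHEB, the GTPase that activates mTORC1 on the lysosome, was at 67.5 and 63.1, 65.8 and 62.5, and 64.9 and 63.5 FPKM, with an estimate of -0.07 (95% interval -0.15 to 0.02, adjusted p = 0.18). RPTOR, which encodes the substrate-binding subunit raptor, was at 0.02 (95% interval -0.10 to 0.14, adjusted p = 0.797). Summed over these 4 genes, the level went from 98.7 to 93.0 FPKM in wild type, 99.1 to 91.9 for clone 1 and 96.8 to 91.7 for clone 2.

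Of the 3 Rag GTPase members, which bring mTORC1 to the lysosome when amino acids are present, RRAGA rose and RRAGC and RRAGD did not pass. Among the 6 regulators of mTORC1, these with FLCN, TSC1 and TSC2, 16.7% rose and 16.7% fell. Over all genes tested the shares were 17.6% and 21.7%. RRAGA, which encodes RagA, was at 24.4 and 34.3 FPKM in wild type, 26.0 and 36.0 for clone 1, and 27.4 and 38.6 for clone 2. The 3 lines differed from their controls by 0.48, 0.45 and 0.48 log2 units, with no overlap between the siRNAs, and RRAGA rose by 0.47 ± 0.04 (adjusted p = 0.00151), more than any other member. RRAGB, its close relative outside the 40 genes, was listed at 0 in 5 libraries and at 0.000508 FPKM in the control of clone 1. RRAGC, which encodes the partner RagC, was at 0.01 (95% interval -0.11 to 0.12, adjusted p = 0.939), and RRAGD was at -0.01 (95% interval -0.15 to 0.13, adjusted p = 0.89).

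FLCN, which encodes folliculin, the GTPase-activating protein for RagC and RagD, was at 11 and 9.60 FPKM in wild type, 12.5 and 8.42 for clone 1, and 11.1 and 7.62 for clone 2. All knockdown values lay below all control values, and FLCN fell by 0.40 ± 0.08 (adjusted p = 0.0121). The difference was -0.18 log2 units in wild type and -0.52 and -0.49 in the clones, and the test of that contrast between clones and wild type did not pass (-0.32 ± 0.08, adjusted p = 0.471). The tuberous sclerosis genes, whose complex turns RHEB off, did not pass. TSC2 was at 9.74 and 9.31 FPKM in wild type, 9.96 and 9.17 for clone 1, and 9.44 and 8.95 for clone 2 (-0.08, 95% interval -0.18 to 0.02, adjusted p = 0.18). TSC1 was at 0.00 (95% interval -0.11 to 0.11, adjusted p = 0.946).

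Both catalytic subunits of AMPK, the energy-sensing kinase, were measured, and their estimates had opposite signs. PRKAA2, which encodes the α2 subunit, was at 4.65 and 3.20 FPKM in wild type, 4.13 and 3.06 for clone 1, and 3.46 and 2.27 for clone 2. Every knockdown value was below every control value, and PRKAA2 fell by 0.40 ± 0.06 (adjusted p = 0.0051). PRKAA1, the α1 subunit and the more abundant of the pair, was at 24.2 and 24.9 FPKM in wild type, 23.7 and 27.7 for clone 1, and 25.5 and 29.3 for clone 2. It did not pass over the 3 lines (0.15 ± 0.05, adjusted p = 0.0578), but passed in the clones alone (adjusted p = 0.0235), with a common median (0.0381), after quantile normalization (0.0317) and at a minimum of 5 FPKM (0.0448). PRKAB1, a β subunit, was at -0.03 (95% interval -0.14 to 0.08, adjusted p = 0.63). STK11, which encodes the upstream kinase LKB1, was at 20.7 and 25.9 FPKM in wild type, 21.4 and 22.1 for clone 1, and 17.6 and 18.5 for clone 2 (0.14 ± 0.06, adjusted p = 0.129). The test of clones minus wild type did not pass for STK11 either (-0.26 ± 0.07, adjusted p = 0.472).

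The members that changed had effects of moderate size among all genes tested and covered a wide range of expression. The estimate of RRAGA, at 0.47, was larger in absolute size than 93.6% of all estimates. In 8 members (20%) all 3 knockdown libraries were above all 3 controls and in 7 (17.5%) all were below, against 12.6% and 16.2% of all genes. The 7 on the low side were ATG3, MTOR, MLST8, RHEB, TSC2, FLCN and PRKAA2, 6 of them in the mTORC1 and AMPK group, and 3 of the 7 passed the test. For 21 of 40 members the range over the 3 control libraries was larger than the knockdown effect, against 68.2% of all genes. Of the 23 members that did not pass, 21 had a 95% interval within 0.3 log2 units of 0.

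**Figure D4:**
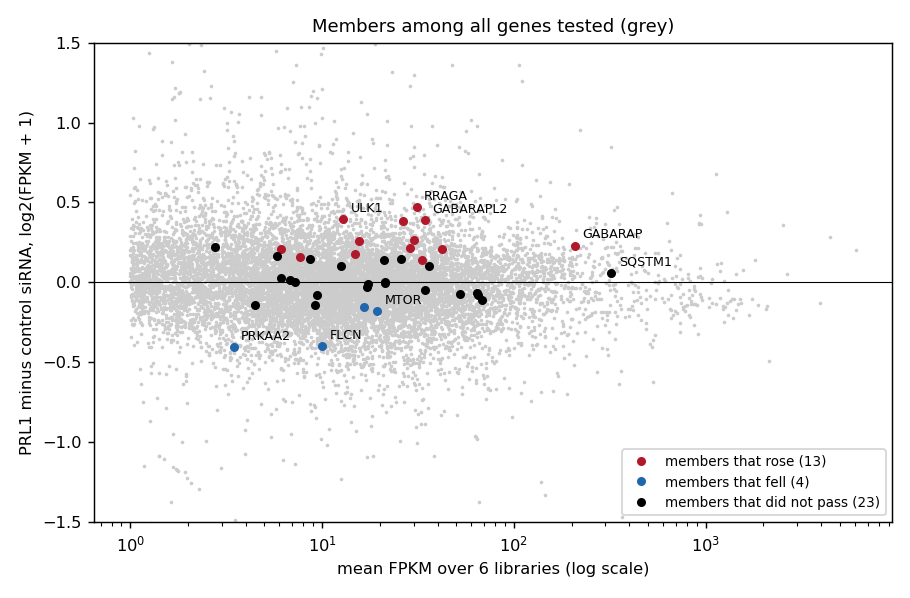
Estimate of the knockdown effect on the log2(FPKM + 1) scale (vertical axis) against mean FPKM (horizontal log axis) for all 12125 genes tested in grey, with the members coloured by call; 30 genes lie beyond 1.5 log2 units and are not drawn. The members that rose lie between 0.14 and 0.47, inside the cloud of all genes.

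Further genes of these pathways were taken from lists chosen by name, with earlier results of these data known, and 22 of those named below were called. Without clone 1, 11 of these calls were lost (ATG2A, CALCOCO1, PHB2, TAX1BP1, SESN2, SESN3, PDCD4, LPIN1, EIF4B, CAMKK2 and MITF, adjusted p = 0.0554 to 0.216). Without clone 2, 6 were lost (CALCOCO1, TAX1BP1, SESN3, PDCD4, CAMKK2 and MITF, adjusted p = 0.0539 to 0.136), and without wild type 3 (CALCOCO1, SESN2 and CAMKK2, adjusted p = 0.0504 to 0.0789). With no filter only MAP1LC3A, VMP1, TEX264, TAX1BP1, DDIT4 and EIF4EBP2 kept their calls, and without the line term none of the 22 did (adjusted p = 0.0651 to 0.624).

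Of 22 tested genes of the remaining autophagy machinery, 9 rose and 0 fell, with a median of 0.15. That is 40.9% called, near the 39.3% of all genes, of which 17.6% rose and 21.7% fell. MAP1LC3A, another LC3, was at 8.14 and 11.2 FPKM in wild type, 7.23 and 10.2 for clone 1, and 9.75 and 12.5 for clone 2, and rose by 0.40 ± 0.05 (adjusted p = 0.00289). VMP1, an ER membrane scramblase needed for autophagosome growth, rose by 0.34 ± 0.03 (adjusted p = 0.00223) and ATG2A, the lipid-transfer protein that feeds the growing membrane, by 0.31 ± 0.05 (adjusted p = 0.00684). ATG16L2 and MAP1LC3C were below 1 FPKM on average and were not tested.

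Receptors of selective autophagy moved in both directions, 6 rising and 4 falling of 18 tested (33.3% and 22.2%, against 17.6% and 21.7% of all genes). TEX264, a receptor for autophagy of the endoplasmic reticulum, was at 34.4 and 57.9 FPKM in wild type, 29.8 and 45.3 for clone 1, and 33.3 and 47.5 for clone 2, and rose by 0.61 ± 0.05 (adjusted p = 0.00176). BNIP3L, a mitochondrial receptor, rose by 0.37 ± 0.05 (adjusted p = 0.00504) and CALCOCO1, also a receptor for the endoplasmic reticulum, by 0.29 ± 0.06 (adjusted p = 0.017). NCOA4, the receptor for ferritin, fell by 0.26 ± 0.04 (adjusted p = 0.00591), from 62.5 to 51.1, from 57.9 to 50.5 and from 64.5 to 52.5 FPKM. The mitochondrial protein PHB2 fell by 0.20 ± 0.03 and the ubiquitin receptor TAX1BP1 fell by 0.17 ± 0.03 (adjusted p = 0.00962 and 0.0127).

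The sensors and regulators that report nutrients and stress to mTORC1 held the largest single difference of the pathway genes named here. Of 28 tested genes of this list, 5 rose and 6 fell, 39.3% of the list and the same share as over all genes. CASTOR1, the arginine sensor, was at 3.90 and 8.16 FPKM in wild type, 4.67 and 12.0 for clone 1, and 6.14 and 17.8 for clone 2, and rose by 1.17 ± 0.10 log2 units (adjusted p = 0.00165). Its relative CASTOR2 rose by 0.49 ± 0.06 (adjusted p = 0.00353). The sestrins, of which SESN2 senses leucine, differed from each other. SESN2 was at 10.7 and 6.08, 8.08 and 5.13, and 8.06 and 6.84 FPKM in wild type, clone 1 and clone 2 and fell by 0.50 ± 0.10 (adjusted p = 0.0144). SESN3 was at 5.30 and 6.62, 3.25 and 6.34, and 2.47 and 4.20 FPKM and rose by 0.55 ± 0.10 (adjusted p = 0.0113). SESN1 did not pass (0.08, adjusted p = 0.419). DDIT4, which encodes the stress-induced mTORC1 inhibitor REDD1, was at 64.0 and 44.9 FPKM in wild type, 43.7 and 26.3 for clone 1, and 50.8 and 32.7 for clone 2 (-0.61 ± 0.05, adjusted p = 0.00163). FNIP2, a binding partner of folliculin, was at 18.6 and 14.2, 17.9 and 10.6, and 12.3 and 8.07 FPKM and fell by 0.54 ± 0.07 (adjusted p = 0.00407). FNIP2 and FLCN, whose proteins act together, both fell, while FNIP1 of the same list did not pass (-0.11, adjusted p = 0.122).

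Genes acting downstream of mTORC1 gave 2 rises and 3 falls of 10 tested, 20% and 30%, near the 17.6% and 21.7% of all genes. EIF4EBP1, which encodes the translation repressor 4E-BP1, was at 34.2 and 22.1 FPKM in wild type, 31.0 and 17.3 for clone 1, and 30.2 and 21.7 for clone 2 (-0.62 ± 0.07, adjusted p = 0.00279). Its relative EIF4EBP2 fell by 0.29 ± 0.04 (adjusted p = 0.00435) and EIF4B, a translation initiation factor, fell by 0.30 ± 0.05 (adjusted p = 0.00662). PDCD4, an inhibitor of translation initiation, rose by 0.41 ± 0.10 and LPIN1, a phosphatidate phosphatase, by 0.37 ± 0.06 (adjusted p = 0.0273 and 0.00609). For mTORC2, 0 of 3 tested genes passed (0 with an unadjusted p under 0.05), against 39.3% of all genes. Of 9 further AMPK genes only CAMKK2, an upstream kinase of AMPK, passed (0.15 ± 0.04, adjusted p = 0.04), which is 11.1% of that list. Among the MiT/TFE transcription factors, which drive lysosome and autophagy genes, MITF rose by 0.19 ± 0.05 (adjusted p = 0.0266). It was the only call among 3 tested, 33.3% rising against 17.6% of all genes. TFEB was at 3.99 and 4.37 FPKM in wild type, 3.5 and 3.95 for clone 1, and 2.87 and 3.18 for clone 2 (0.12, 95% interval -0.01 to 0.25, adjusted p = 0.127). TFE3 was at 12.7 and 14.3, 12.3 and 12.5, and 11.9 and 12.0 FPKM (0.07, 95% interval -0.05 to 0.19, adjusted p = 0.31).

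**Figure D5:**
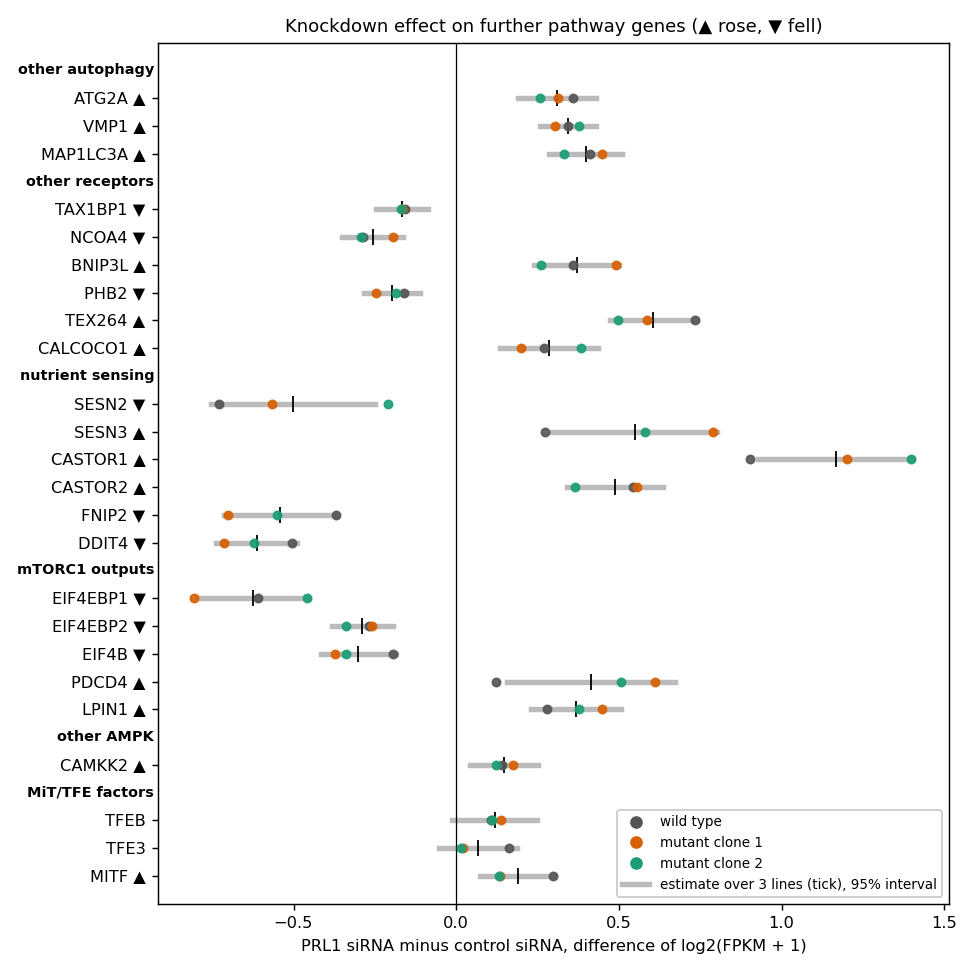
Difference of log2(FPKM + 1) between PRL1 and control siRNA (horizontal axis) for the further pathway genes named in the text, with 1 point per line, the estimate over the 3 lines as a tick and its 95% interval as a grey bar. CASTOR1 lies farthest to the right, at 1.17, and EIF4EBP1, DDIT4, FNIP2 and SESN2 lie at or below -0.50.

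The mutant clones were next compared with wild type under control siRNA, with the lone wild-type library assumed to vary like the clones. By limma 0 of 40 members passed, as did 0% of all genes, with 2 members and 1632 of 12125 genes at an unadjusted p under 0.05, and the smallest adjusted p of a member was 0.313. WIPI1 had the largest positive estimate, 0.93 ± 0.30 log2 units (adjusted p = 0.341). It was at 2.92 FPKM in wild type, 5.29 in clone 1 and 7.89 in clone 2, and at 3.14, 6.49 and 9.04 after knockdown, so both clones were above wild type under either siRNA. UVRAG was at 6.88, 8.25 and 14.2 FPKM (0.59 ± 0.41, adjusted p = 0.597), with clone 2 the highest. ULK2 was at 6.10, 7.14 and 8.37 FPKM (0.30 ± 0.13, adjusted p = 0.427). The most negative estimates were those of ATG10 (-0.37 ± 0.10, adjusted p = 0.313), which was at 6.77, 4.91 and 5.07 FPKM, PRKAA2 (-0.24 ± 0.19, adjusted p = 0.636) and RRAGD (-0.17 ± 0.21, adjusted p = 0.777). All 4 clone libraries were above both wild-type libraries in ULK2, UVRAG, ATG4B and WIPI1, and below them in ATG10 and TSC1, which is 10% and 5% of members against 17.5% and 10.6% of all genes tested.

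Whether the knockdown effect differed between clones and wild type was tested directly. By limma 0 of 40 members passed (smallest adjusted p = 0.471). An unadjusted p under 0.05 was found for 5 members and for 1228 of 12125 genes. Over all genes 1 passed, 0.00825%. That gene was TXNIP, which lies outside the 40 and is named here after its values were seen. The largest positive differences, clones minus wild type, were those of ATG14, given above, ATG12 (0.21 ± 0.07, adjusted p = 0.482) and PRKAA1 (0.16 ± 0.06, adjusted p = 0.495). The most negative were those of FLCN, STK11 and SQSTM1, also given above. With 1 pair of wild-type libraries, this test has 1 residual degree of freedom. Beyond limma's pooling over genes, its spread comes from the 2 clones alone. The 95% interval ran from -0.38 to -0.07 for SQSTM1 and from -0.03 to 0.62 for ATG14.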

How the data were processed

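Stranded mRNA libraries of 6 MDCK samples were sequenced, per the labels' protocols. The authors deposited 1 table of FPKM per library, made with HISAT2 2.1.0, Cufflinks 2.2.1 and Cuffdiff, per the submitters' processing notes, which give tools in no order. Build, annotation and strand setting were not given in the sources used here. From these values, log2(FPKM + 1) was computed for the 12125 genes averaging 1 FPKM or more and tested with limma 3.58.1 (R 4.3.3, trended empirical Bayes, Benjamini-Hochberg adjustment over all genes tested, threshold 0.05). A fold change on this scale understates the change of low genes.

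The knockdown test had a term for the line, since both libraries of a line share their cells. Deviations of the control and knockdown library of a line from their group means correlated at r = 0.684 in wild type, 0.511 in clone 1 and 0.698 in clone 2, across 12125 genes that are not independent replicates. The clones were compared with wild type in a 4-group fit, and the difference of effects in a fit with the line term. On simulated data the knockdown test recovered 100% of changes of log2 1 and 85% of changes of log2 0.4 (100 genes each among 12125), with 17 unchanged genes among 202 called. The simulation drew independent noise from the fit's own variances and changed 200 genes, while 39.3% of genes were called in the data. Changes under log2 0.4 were not simulated, so the rates do not cover most called members, whose estimates were smaller. Depth in reads is not recoverable: ratios of genes under 0.1 FPKM gave relative depths, with 28.3% to 31.4% of ratios within 0.01 log2 units of a whole-number ratio.

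Named were the members that passed with 1 sign in all 3 lines (at most 10 per direction), 7 members and 4 further genes whatever their values, up to 3 genes per further list and direction, and the 3 extreme members per direction where none passed; the other members are described because every member is accounted for. Members and lists were chosen with earlier results of these data known. Gene names were matched to RefSeq (assembly UU_Cfam_GSD_1.0), which held all 40 members and was used for names and neighbours only: 14 members overlap another gene there, 6 of them called (ULK2, ATG5, ATG10, ATG16L1, GABARAPL2 and MTOR), and apart from ADAT1 the genes overlapping those 6 were at most at 1.09 FPKM. Alternatives covered the pseudocount, the filter, the scaling, the variance trend, the line term and leaving out libraries.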

Additional observations from a re-analysis of the deposited data

Results flagged for a closer look

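Over all genes tested, the knockdown effect in the clones differed from that in wild type by limma's test of the difference itself for 1 gene, TXNIP, which encodes an arrestin-family regulator of glucose uptake and redox state. TXNIP was at 8.43 FPKM in the wild-type control and 25.9 in its knockdown, at 6.0 and 95.6 in clone 1, and at 11 and 165 in clone 2. Its difference on the log2(FPKM + 1) scale was 1.51 in wild type and 3.79 in both clones, a contrast of 2.27 ± 0.06 (SE, adjusted p = 0.0242). Wild type is a single pair of libraries, so beyond limma's pooling over genes the spread in this test comes from the 2 clones alone, whose differences were nearly equal here. With no filter, after quantile normalization, without the replicate block and in each leave-one-out, 0 genes passed. TXNIP is not among the 40 members.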

How the results depend on the processing

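The paired analysis, with the line as replicate block, carries the knockdown calls: 4762 genes and 17 members passed with it. Without the replicate block 0 genes and 0 members passed, over the 3 lines or in the clones alone. With no filter on low values 1179 genes and 4 members passed. Leaving out 1 line gave between 1709 and 4037 genes and between 5 and 18 members, the lowest without clone 1, then 2421 genes and 6 members without clone 2, and the highest without wild type. With another pseudocount, a minimum of 5 FPKM, a common median, quantile normalization or no variance trend, between 4195 and 4842 genes passed, and 12 to 15 members rose and 2 to 4 fell. Every named gene that was called kept its direction in the alternatives run. Among members that were not called, ATG101, ATG4B, ATG7, SQSTM1, RPTOR, TSC1, RRAGC, RRAGD and PRKAB1 changed sign in at least 1 alternative, SQSTM1 from 0.06 to -0.01 without wild type.

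For clones against wild type, 165 genes passed with no filter and 4 with no variance trend, against 0, and 0 members passed under any alternative run. For the difference of effects, 1 gene passed, against 2 with a pseudocount of 0.1, 0 with no filter, 3 at a minimum of 5 FPKM, 13 with a common median, 0 after quantile normalization, 7 with no variance trend, 0 without the replicate block and 0 in each leave-one-out. Leaving out a line leaves fewer samples, and no filter adds low genes; the cause of the other shifts was not tested. With 1 library per line and siRNA and no counts, precision is limited by the number of libraries.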
